A study of Mus musculus with 8 samples.

Results

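Gene expression in the wild-type (WT) pro-B cell line was set against that of the 3 mutant lines together. A gene was kept when both WT values lay above, or both lay below, all 6 mutant values on the log2(FPKM + 1) scale, with loci on chromosomes X and Y left out. FPKM is the number of fragments per kilobase of transcript, scaled to the mapped reads of the library. By this rule 4312 of 22822 gene symbols were kept, 2127 of them higher and 2185 lower in WT. Of the 4312, 3276 reached an FPKM of at least 1 in at least 2 of the 8 libraries and entered the test, and 1036 did not. Among the 3276, 88 stayed under 1 FPKM in every mutant library and 334 stayed under 1 FPKM in both WT libraries. Genes of both kinds passed the filter only through the group in which they were high, and so had to differ.

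All 4 lines were pro-B cell lines from 129SV bone marrow, grown untreated in RPMI medium with serum and 2-mercaptoethanol, with 2 libraries each. The WT line carried the genotype label Wild type. CBE line 1 and CBE line 2 were both labelled IGCR1-/- and titled CBE-/-, and the Eµ-deleted line was labelled Eµ-/-. Each genotype other than IGCR1-/- was thus represented by a single line, so genotype and line cannot be told apart. Whether the 2 libraries per line derive from separate cultures is not stated, so p-values rest on library-to-library spread alone, and that spread may be technical.

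Pro-B cells are the B cell precursors that assemble the immunoglobulin heavy chain (IgH) gene from V, D and J segments. IGCR1 is a regulatory region between the V and D segments whose CTCF-binding elements (CBEs) keep recombination ordered and insulate the D to J region. Eµ is the enhancer in the intron between the J segments and the Cµ exons, and it promotes IgH transcription and recombination. CTCF and the cohesin ring together form the chromatin loops in which this recombination takes place.

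The reads implied by the deposited intervals (in units of 1e6) ranged from 31.3 to 49.5 per library. Libraries of the same line correlated at 0.978 to 0.992 (Pearson's r on log2(FPKM + 1) across the tested genes, given as a description), WT with mutant libraries at 0.926 to 0.946, and different mutant lines with each other at 0.939 to 0.964. Of 16 pro-B markers, 13 reached 1 FPKM in both WT libraries and 15 did so in all 6 mutant libraries. Kit was listed at 0 throughout, and the recombinase genes Rag1 and Rag2 were near 0 in WT, at 0.0427 and 0.0295 FPKM and at 0.0207 and 0.00543 FPKM, against 3.77 to 13.8 and 1.93 to 5.38 FPKM in the mutant libraries. Of 8 T cell markers only Lat and Lck passed 1 FPKM in any library, with Cd3e, Cd4 and Cd8a listed at 0, while the summed level of all 8 was 313 to 355 FPKM in WT and 146 to 191 FPKM in the mutant lines. Of 4 NK markers Klrb1c was higher in WT, at 1.76 and 2.39 FPKM against 0.388 to 1.09 FPKM, and Ncr1 and Gzmb were listed at 0. Myeloid markers summed to 3.27 to 6.71 FPKM in WT and 1.61 to 8.85 FPKM in the mutant lines, with Elane and Cebpa listed at 0, and erythroid and stromal markers stayed under 1 FPKM in all 8 libraries.

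Of the 10146 genes tested off chromosomes X and Y, 1429 (14.1%) had both WT values above all mutant values and 1847 (18.2%) had both below. A moderated contrast of the WT mean with the mean of the 3 mutant line means (limma, Benjamini-Hochberg adjusted p under 0.05) called 1112 genes (11.0%) higher in WT and 1376 (13.6%) lower. Genes that met both criteria are called set apart here. The rule and the contrast use the same 8 values, so a call is no independent support for a gene the rule kept, and no p-value of the contrast is printed for the genes chosen below by that rule, except where another fit lost the call. Their differences are given with SE as a description. There were 2047 of them, 927 (9.14%) higher in WT and 1120 (11.0%) lower, and 814 of the 2047 were also called against each mutant line singly. The median difference, WT minus mutant lines, was 0.60 among the higher genes and -0.66 among the lower genes, and -0.02 over all genes tested. A difference of at least 1 on the log2(FPKM + 1) scale was seen for 221 of the higher and 321 of the lower genes. This scale understates the change of genes with low FPKM. The nearest WT and mutant values lay a median of 0.268 apart, and for 89 higher and 137 lower genes they lay at least 1 apart. Just inside the rule was Kif17, a kinesin, whose WT values of 0.2795 and 0.1564 FPKM nearly met the lowest mutant value of 0.2807 FPKM. Just outside it was Psrc1, with 17.98 and 18.9 FPKM in WT and a highest mutant value of 17.99 FPKM.

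The number of set-apart genes rested on both WT libraries. Without WT replicate 1 the counts were 396 higher and 579 lower, and without WT replicate 2 they were 371 and 477. In all, 322 of the higher and 436 of the lower genes were set apart in each of the 8 fits that left out 1 library. With the spread between mutant lines counted as error, 423 higher and 542 lower genes were called. With 1 mean per line as the unit, which leaves 2 residual degrees of freedom, 3 higher and 15 lower genes were called, 7 of the 24 leading genes below among them. With the replicate number as a block, the called genes numbered 1688 higher and 1970 lower, and the set-apart genes 1194 and 1442. Scaling moved the balance of the called genes, from 1112 higher and 1376 lower to 1365 and 1227 under quantile normalization and to 894 and 1667 under TPM scaling, and that of the set-apart genes to 1125 and 935 and to 708 and 1390.

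The same rule applied to each mutant line in turn gave fewer genes. Both libraries lay outside the 6 others for 3276 genes (32.3%) when the line was WT, 1320 (13.0%) for CBE line 1, 1922 (18.9%) for CBE line 2 and 1659 (16.4%) for the Eµ-deleted line. With a distance of at least 1 between the nearest values, the counts were 226, 43, 89 and 61. No test was made of these counts. Set-apart genes were not spread evenly over the chromosomes. On chromosome 19, 180 of 386 tested genes (46.6%) were set apart higher in WT and 19 (4.92%) lower, with a median difference of 0.42. On the other autosomes 4.87% to 13.7% were higher, and the median ranged from -0.09 to 0.18. With chromosome 19 left out, 747 of 9760 genes (7.65%) were set apart higher in WT and 1101 (11.3%) lower. The chromosome 19 members of each group are therefore given below where they are among the genes higher in WT. Their part in the group counts was not tested beyond the counts without them. The copy number of chromosomes in the 4 lines was not analysed here, so RNA per gene copy is not known.

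**Figure D1:**
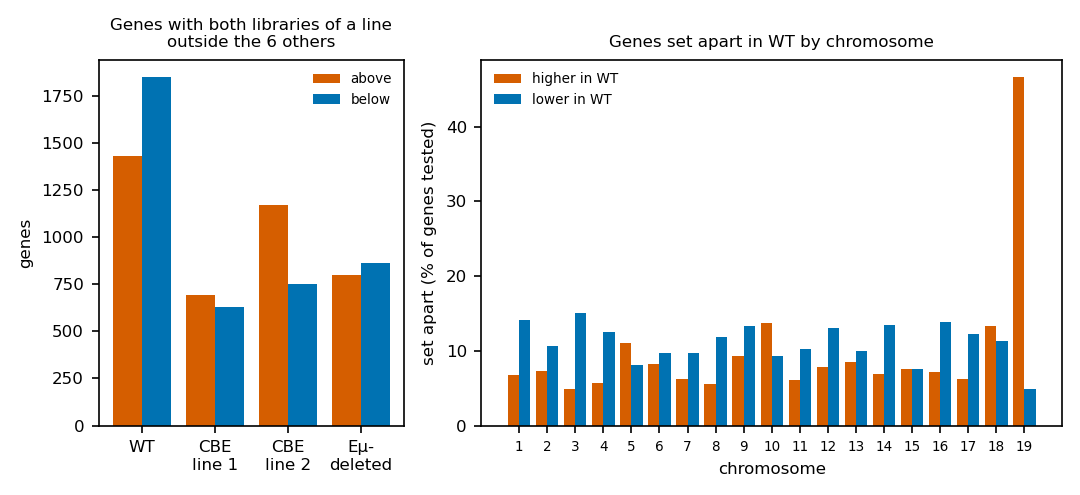
Left, number of tested genes (y axis) whose 2 libraries of the named line lay above or below all 6 libraries of the other lines; WT had 1429 above and 1847 below. Right, share of tested genes (%, y axis) on each autosome set apart higher or lower in WT; chromosome 19 stands out with 46.6% higher.

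Most of the genes lower in WT with the widest distance between the nearest values were all but silent in the WT line. Npepl1, an aminopeptidase-like gene (chr2:173935852-173948203, mm9), had 0.303 and 0.338 FPKM in WT. In the mutant lines it had 44.5 and 50.6 FPKM for CBE line 1, 49.9 and 51.8 for CBE line 2 and, for the Eµ-deleted line, 50 and 48.3. The 6 mutant values lay close together and far from both WT values, with a difference of -5.25 ± 0.08 (SE). Smyd2, a lysine methyltransferase gene (chr1:191704371-191746167, mm9), was listed at 0 in both WT libraries and at 19.8 to 28.8 FPKM in the 6 mutant libraries. B4galnt1, which encodes the enzyme that makes the gangliosides GM2 and GD2 (chr10:126602212-126609396, mm9), had 0.0739 and 0.0582 FPKM in WT and 25.2 to 51.8 FPKM in the mutant libraries. Wdr11, a WD-repeat protein gene, had at most 0.00398 FPKM in WT and 11.2 to 13.7 FPKM in the mutant libraries.

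Other leading genes were low in WT, and most of them also differed among the mutant lines. Ctnna1, the gene of alpha-catenin that links cadherins to actin, had 0.019 and 0.0199 FPKM in WT. Its mutant values were 39.2 and 35.6 FPKM for CBE line 1, 24 and 20.2 for CBE line 2 and, for the Eµ-deleted line, 14.2 and 14.8, so the mutant lines did not overlap each other. Ryk, a Wnt receptor of the receptor kinase class, had under 0.02 FPKM in both WT libraries. It had 11.9 and 15.8 FPKM in CBE line 1 and 28.2 to 32.8 FPKM in the other mutant libraries. Cyp4f18, a cytochrome P450 that hydroxylates leukotrienes and related fatty acids, had 0.816 and 0.416 FPKM in WT, 140 and 160 in CBE line 1, and 29.6 to 51.1 FPKM in the other mutant libraries. Crhbp, the gene of a secreted protein that binds corticotropin-releasing hormone, was highest in the Eµ-deleted line, at 83.9 and 124 FPKM, against 25.3 to 41.5 FPKM in the CBE lines and 0.97 and 1.03 FPKM in WT. Fam92a, Tmem41a, Tsnax and Akip1 completed the 12, with at most 0.0225 FPKM in WT and 11.9 to 55.4 FPKM in the mutant libraries. For Tmem41a and Akip1 the mutant lines were not called different (limma F test).

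The genes higher in WT with the widest distance included immune and metabolic genes. Cyp2c55, a cytochrome P450 (chr19:39081509-39117177, mm9), had 74.9 and 81.2 FPKM in WT. It was listed at 0 in all 4 CBE libraries and had 1.43 and 1.41 FPKM in the Eµ-deleted line (difference 5.88 ± 0.07, SE). Ccr2, the receptor of the monocyte chemokine Ccl2 (chr9:124016922-124023879, mm9), had 43.9 and 81.9 FPKM in WT and 0.991 to 3.93 FPKM in the mutant libraries. Its WT libraries differed widely, yet both lay far above every mutant value. Lgals3bp, a secreted galectin-binding glycoprotein (chr11:118254066-118263245, mm9), had 21.9 and 20.9 FPKM in WT and 0.225 to 0.965 FPKM in the mutant libraries. Ubash3a, a suppressor of T cell receptor signalling, had 11.2 and 11.1 FPKM in WT and at most 0.304 FPKM elsewhere. Mpeg1, the macrophage-expressed perforin-like gene on chromosome 19, had 10.3 and 5.85 FPKM in WT and at most 0.314 FPKM elsewhere. Kynu, the kynureninase of tryptophan breakdown, had 7.48 and 7.76 FPKM in WT and at most 0.376 FPKM elsewhere. Sox15, Rarres1, Bfsp2, Rnase12, Apol10b and Lsmem1 were the remaining 6, with 6.21 to 44.5 FPKM in WT and 0 to 4.75 FPKM in the mutant libraries. All 24 leading genes were called in each of the 8 fits that left out 1 library. Those fits share most of the values on which the genes were chosen, and so give no independent support.

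**Figure D2:**
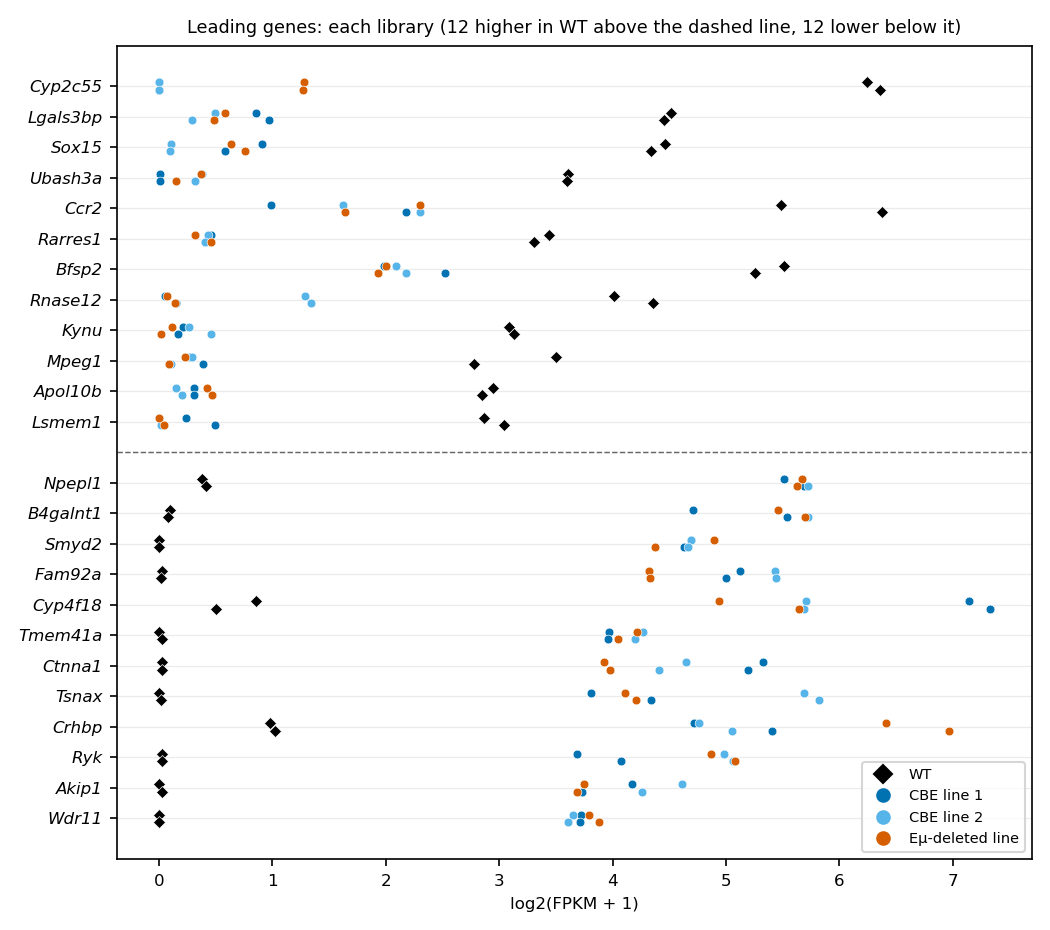
Expression of the 24 leading genes in each library, as log2(FPKM + 1) on the x axis; diamonds are WT, circles the mutant lines, and the 2 marks of a line are its libraries. For every gene the WT diamonds stand clear of all 6 circles, because the genes were chosen for this distance. Npepl1 is tightly grouped, and Cyp4f18 and Crhbp spread among the mutant lines.

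The promoters of the 2 genes with the widest distance in each direction that have a window in the RefSeq table are printed below, since these genes were near 0 in WT or in the mutant lines. Each window runs from 250 bases before to 50 bases after the annotated start (GRCm38.p6, RefSeq), is written 5′ to 3′ on the gene's strand, and has every CG in capitals. Npepl1 (chr2:174110101-174110400, plus strand) holds 39 CG, a number reached by 4.29% of 27025 windows in the table. Smyd2 (chr1:189922242-189922541, minus strand) holds 43, reached by 2.51% of windows. Lgals3bp (chr11:118401910-118402209, minus strand) holds 3, reached by 76.2% of windows. Cyp2c55 (chr19:39006769-39007068, plus strand) holds 0, and 94.2% of windows hold at least 1. Windows were found by symbol for 11 of the 12 leading genes higher in WT and 8 of the 12 lower, too few for a comparison between them.
Npepl1: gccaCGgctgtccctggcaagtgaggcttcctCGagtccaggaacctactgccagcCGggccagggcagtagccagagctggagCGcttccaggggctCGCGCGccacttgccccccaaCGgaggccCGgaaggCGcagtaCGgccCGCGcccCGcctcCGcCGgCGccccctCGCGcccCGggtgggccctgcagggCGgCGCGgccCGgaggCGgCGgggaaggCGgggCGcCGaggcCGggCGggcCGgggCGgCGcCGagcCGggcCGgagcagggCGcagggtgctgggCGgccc
Smyd2: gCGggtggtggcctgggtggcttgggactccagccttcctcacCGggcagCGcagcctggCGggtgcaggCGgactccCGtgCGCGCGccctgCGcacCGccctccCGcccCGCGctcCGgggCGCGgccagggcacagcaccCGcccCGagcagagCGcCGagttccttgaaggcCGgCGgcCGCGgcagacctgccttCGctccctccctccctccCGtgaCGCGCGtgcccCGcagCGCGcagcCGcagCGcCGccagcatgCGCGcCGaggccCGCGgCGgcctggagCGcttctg
Lgals3bp: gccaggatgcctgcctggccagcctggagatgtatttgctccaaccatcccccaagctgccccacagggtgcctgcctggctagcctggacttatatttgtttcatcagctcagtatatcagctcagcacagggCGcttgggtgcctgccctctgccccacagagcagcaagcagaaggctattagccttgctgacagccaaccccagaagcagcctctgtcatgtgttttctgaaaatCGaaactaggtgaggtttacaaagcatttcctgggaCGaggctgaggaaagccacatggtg
Cyp2c55: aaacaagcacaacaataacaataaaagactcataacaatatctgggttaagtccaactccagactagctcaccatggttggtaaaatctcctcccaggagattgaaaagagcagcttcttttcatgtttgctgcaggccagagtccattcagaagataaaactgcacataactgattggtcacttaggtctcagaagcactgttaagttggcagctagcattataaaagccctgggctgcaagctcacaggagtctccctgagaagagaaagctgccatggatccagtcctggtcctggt

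Functional lists show which kinds of genes lay on each side. Of 83 lists, 77 had at least 10 tested members. Their counts of set-apart members are read against the 9.14% of all tested genes set apart higher in WT and the 11.0% set apart lower. Counts at an unadjusted p under 0.05 (limma), printed for some lists, follow a looser criterion. The share of all tested genes at that threshold is not given, so those counts are not to be read against the shares of set-apart genes. The shares of genes set apart fell as the mean FPKM of the genes rose. Among tested genes with a mean of 0.297 to 5.12 FPKM, 12.9% were set apart higher and 16.0% lower. Among those with a mean from 33.9 FPKM upwards, 7.49% were higher and 6.90% lower. Lists were not compared with genes of matched level, so how far a list's share follows its members' level was not tested. Some set-apart members stayed under 1 FPKM throughout WT or throughout the mutant libraries. They passed the filter only through the other group, and so had to differ. The shares of the lists and of all tested genes include such members, and no share was computed without them. Medians against the single mutant lines share the WT libraries and are given side by side. Counts of set-apart members without a named library, or with the spread between mutant lines counted as error, are given where they moved by more than 1.5 times, except for counts of 3 or fewer.

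**Figure D3:**
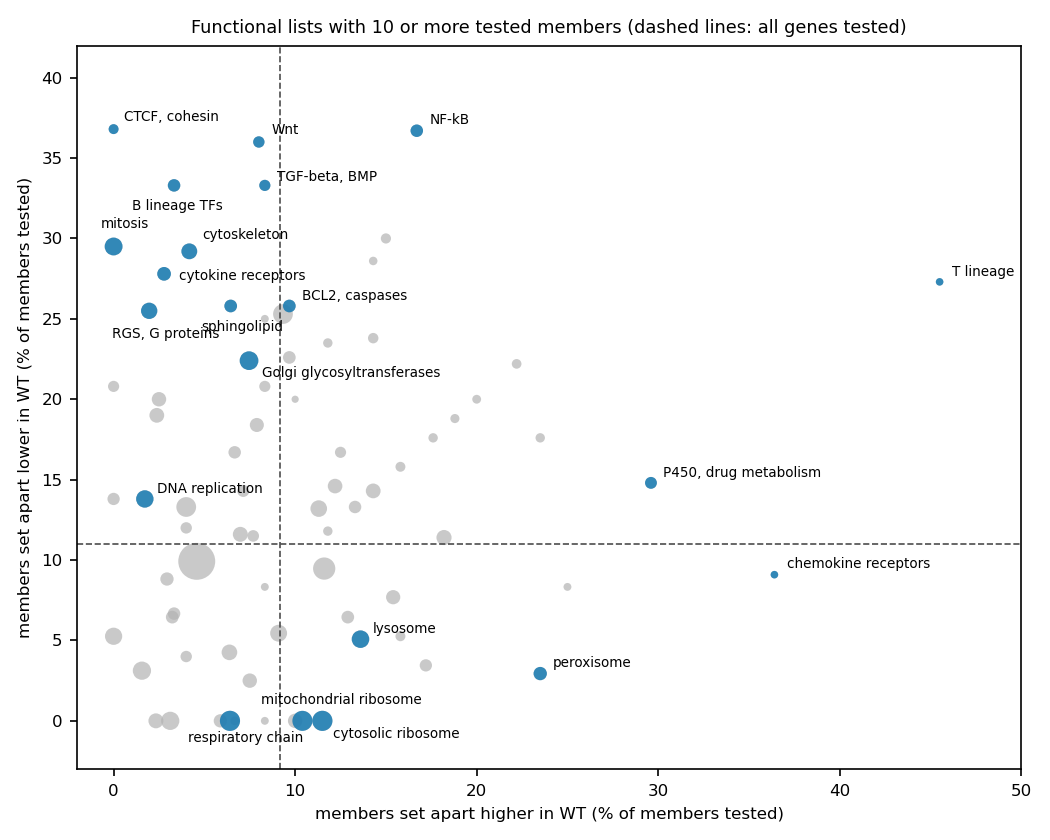
Share of each list's tested members set apart higher (x axis, %) and lower (y axis, %) in WT; the area of a point grows with the number of tested members, blue lists are named, and dashed lines mark 9.14% and 11.0% for all genes tested. Mitosis, CTCF and cohesin, B lineage transcription factors and Wnt genes sit high on the left, and T lineage, chemokine, P450 and peroxisome genes sit to the right. The shares include members that passed the filter only through WT or only through the mutant lines.

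Genes of mitosis lay lower in WT as a group. Of 61 members, all tested, 18 (29.5%) were set apart lower in WT and 0 higher (limma; 0 members were higher and 36 lower at an unadjusted p under 0.05). The median difference was -0.32. Against the lines singly it was -0.40 for CBE line 1, -0.24 for CBE line 2 and -0.35 for the Eµ-deleted line. Foxm1, the transcription factor that drives mitotic genes, had 28.9 and 26.8 FPKM in WT and 41.1 to 56.3 FPKM in the mutant libraries (-0.67 ± 0.12, SE). Cdca2, a chromosome-bound phosphatase subunit, had 18.5 and 16.1 FPKM in WT and 26.4 to 31.3 FPKM in the mutant libraries (-0.73 ± 0.09, SE). Mki67, the proliferation marker Ki-67, had 40.1 and 35.3 FPKM in WT and 53.9 to 83.7 FPKM in the mutant libraries. WT and mutant values did not overlap for any of the 3 genes, which follows from the rule that chose them. Without either WT library Foxm1 and Mki67 were not called, with an adjusted p of up to 0.0865 and 0.162 (limma), and Mki67 was also lost without CBE line 2 replicate 1. Without WT replicate 1 and replicate 2 the mitosis count was 10 and 3, and without CBE line 2 replicate 1 and replicate 2 it was 10 and 11. Under the other scalings it ranged from 16 to 30.

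For DNA replication and repair genes the shares set apart lower were near the 11.0% of all tested genes. Of 58 replication genes 8 (13.8%) were set apart lower and 1 (1.72%) higher, with a median of -0.15. E2f2, an activator of S phase genes, had 26.5 and 23.8 FPKM in WT and 37.6 to 44 FPKM in the mutant libraries. Pole2, a subunit of the leading-strand polymerase, was the exception, with 262 and 285 FPKM in WT, 90.1 and 121 for CBE line 1, 36.6 and 35.4 for CBE line 2 and, for the Eµ-deleted line, 141 and 135. Of 75 tested repair genes 10 (13.3%) were set apart lower and 3 higher, 1 of the 3 on chromosome 19, with a median of -0.15. Hmces, which shields abasic sites, had 0.0916 and 0.0575 FPKM in WT and 7.58 to 49.6 FPKM in the mutant libraries. Mpg, the glycosylase of alkylated bases, had 0.0303 and 0.0354 FPKM in WT and 7 to 11.8 FPKM in the mutant libraries. Ercc5, the nuclease of nucleotide excision repair, had 0.594 and 0.482 FPKM in WT and 3.24 to 7.52 FPKM in the mutant libraries. Hmces, Mpg and Ercc5 passed the filter only through the mutant lines, and so had to differ. Without either WT library the lower counts were 1 and 1 for replication and 4 and 4 for repair, without CBE line 2 replicate 1 and 2 they were 3 and 3 and 5 and 4, and without CBE line 1 replicate 1 that of replication was 4. Taking the spread between mutant lines as error, the counts were 3 and 5, and with the replicate block the repair count was 16. Under the other scalings 5 to 12 replication genes were set apart lower. E2f2 was not called without WT replicate 2 (limma adjusted p = 0.0641).

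CTCF, cohesin and looping factors were also lower in WT where they differed. Of 19 tested members 7 (36.8%) were set apart lower and 0 higher (limma; 0 higher and 9 lower at an unadjusted p under 0.05), with a median of -0.28. Rad21, the cohesin ring subunit that closes the ring, had 99.4 and 83.5 FPKM in WT and 108 to 142 FPKM in the mutant libraries (-0.49 ± 0.11, SE). Esco2, which acetylates cohesin in S phase, had 27.2 and 24.5 FPKM in WT and 37.8 to 48.1 FPKM in the mutant libraries. Bptf, a nucleosome-remodelling subunit, had 7.71 and 7.55 FPKM in WT and 10 to 12.3 FPKM in the mutant libraries. Stag3, the meiotic cohesin subunit, was set apart by a narrow distance. Its 17.8 and 22.1 FPKM in the Eµ-deleted line stood against 0.976 and 1.16 FPKM in CBE line 2 and at most 0.0329 FPKM in CBE line 1 and WT. Stag3 thus passed the filter only through the Eµ-deleted line and CBE line 2, yet it counts among the 7. Without WT replicate 2 Rad21, Esco2 and Bptf were not called, Rad21 was also lost without CBE line 2 replicate 1, and Bptf without WT replicate 1 and CBE line 2 replicate 2, with adjusted p of up to 0.195, 0.0534 and 0.136 (limma). The count was 3 without WT replicate 1, 1 without WT replicate 2, and 4 and 3 without the CBE line 2 libraries.

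Transcription factors of the B lineage were lower in WT in 10 of 30 tested cases (33.3%) and higher in 1 (3.33%), with a median of -0.17. Gfi1, a repressor of early lineage choice, had 0.401 and 0.481 FPKM in WT, 2.96 and 3.08 for CBE line 1, 1.25 and 1.43 for CBE line 2 and, for the Eµ-deleted line, 5.9 and 8.12 (-1.55 ± 0.12, SE). All 3 mutant lines lay above WT, as the rule requires, at levels that did not overlap each other. Id3, an inhibitor of E proteins, had 38.5 and 34.3 FPKM in WT and 75.7 to 96.5 FPKM in the mutant libraries. Id2, the related inhibitor, was the 1 member higher in WT, at 19.8 and 17.4 FPKM against 10.7 to 17.1 FPKM, but it was not called without either WT library, CBE line 1 replicate 1 or CBE line 2 replicate 1 (limma adjusted p of up to 0.248). Erg, an ETS factor of early progenitors, had 8.19 and 3.12 FPKM in WT and 10.7 to 38.8 FPKM in the mutant libraries, and it was not called without WT replicate 2 (limma adjusted p = 0.0567). Pax5, which commits cells to the B lineage, had 38.3 FPKM in both WT libraries and 41.3 to 65.8 FPKM in the mutant libraries. The lower count was 4 without WT replicate 2 and 5 with the spread between mutant lines as error.

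Receptors and signalling genes of the pre-BCR and of cytokines followed. Of 38 tested pre-BCR and BCR signalling genes 7 (18.4%) were set apart lower and 3 (7.89%) higher, 1 of the 3 on chromosome 19. Prkcb, the protein kinase C of B cell receptor signalling, had 4.88 and 5.27 FPKM in WT and 17.8 to 27.6 FPKM in the mutant libraries. Cd79b, a signalling chain of the receptor, had 176 and 162 FPKM in WT and 230 to 402 FPKM in the mutant libraries. Dok2, an adaptor that dampens kinase signalling, went the other way, with 31.3 and 28.2 FPKM in WT and 1.7 to 7.31 FPKM in the mutant libraries. Of 36 tested cytokine receptor, JAK and STAT genes 10 (27.8%) were set apart lower and 1 (2.78%) higher, with a median of -0.32. Il2ra, the IL-2 receptor alpha chain also known as CD25, had 4.71 and 3.5 FPKM in WT and 11.7 to 23.7 FPKM in the mutant libraries (-1.71 ± 0.19, SE). Il10ra, an IL-10 receptor chain, had 2.04 and 1.57 FPKM in WT and 3.86 to 13.8 FPKM in the mutant libraries. Il27ra, the IL-27 receptor, had 0.0988 and 0.162 FPKM in WT and 1.2 to 3.73 FPKM in the mutant libraries. Jak3, the kinase of the common gamma chain, was the 1 member higher in WT, at 17.1 and 15.8 FPKM against 10.8 to 13.2 FPKM. Without either WT library Cd79b and Jak3 were not called (limma adjusted p of up to 0.112 and 0.1). Without WT replicate 2 the lower counts were 3 for the pre-BCR list and 4 for the cytokine list, and with the spread between mutant lines as error they were 4 and 5.

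**Figure D4:**
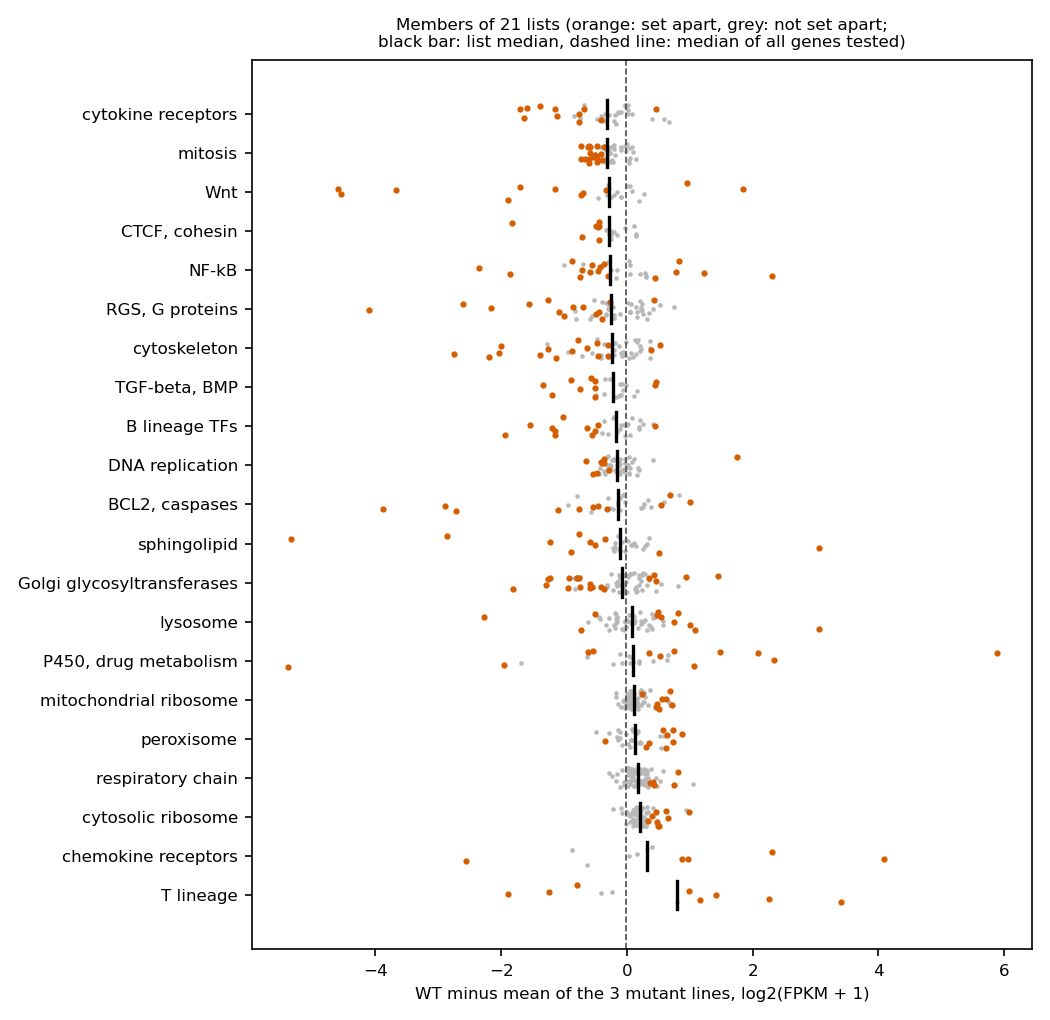
Difference of WT from the mean of the 3 mutant lines, on the log2(FPKM + 1) scale (x axis), for each tested member of 21 lists; orange members were set apart, grey were not, black bars are list medians and the dashed line is the median of all genes tested, -0.02. Mitosis and ribosomal genes lie close to 0 with shifted medians, whereas Wnt, P450 and sphingolipid genes have a few members far from 0.

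Genes of the NF-kB pathway were found on both sides. Of 30 tested, 11 (36.7%) were set apart lower and 5 (16.7%) higher, 2 of the 5 on chromosome 19, with a median of -0.27. Nfkb2, the precursor of the p52 subunit, had 13.3 and 16.1 FPKM in WT and 6.75 to 9.52 FPKM in the mutant libraries. It lies on chromosome 19. Tnfaip3, the A20 inhibitor of the pathway, had 6.59 and 5.36 FPKM in WT and 1.34 to 2.42 FPKM in the mutant libraries (1.22 ± 0.17, SE). Tnfrsf18, the receptor GITR, had 2.08 and 2.12 FPKM in WT and 7.03 to 27.4 FPKM in the mutant libraries. Rel, the c-Rel subunit, had 3.5 and 3.66 FPKM in WT and 5.38 to 9.51 FPKM in the mutant libraries. Lta, lymphotoxin alpha, had 22.6 and 11 FPKM in WT and 34.5 to 178 FPKM in the mutant libraries. Its call was lost in all leave-out fits but those without a CBE line 1 library (limma adjusted p of up to 0.321), and that of Rel without either WT library or CBE line 2 replicate 2 (up to 0.137). The 11 lower genes were down to 1 without either WT library and to 6 and 4 without the CBE line 2 libraries, while the higher genes numbered 5 and 4 without the WT libraries. When line spread counted as error, 5 genes were lower.

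The immediate early, Wnt, TGF-beta and apoptosis lists held some of the wider differences. Jun, an AP-1 subunit, had 2.8 and 2.33 FPKM in WT and 10.3 to 28.6 FPKM in the mutant libraries (-2.50 ± 0.11, SE), and 5 of 24 tested AP-1 and immediate early genes (20.8%) were set apart lower and 0 higher (limma; 1 higher and 9 lower at an unadjusted p under 0.05). The median of that list was -0.05 and 0.03 under quantile normalization. Of 25 tested Wnt genes 9 (36.0%) were set apart lower and 2 higher, with a median of -0.28. Ryk and Ctnna1, described above, are among the 9. Ryk, Ctnna1 and Aes stayed under 1 FPKM in both WT libraries. They passed the filter only through the mutant lines, and so had to differ. Aes, a Groucho-related corepressor, was almost absent from WT, at 0.0436 and 0.0137 FPKM, and had 2.56 and 3.63 FPKM for CBE line 1, 12.4 and 12.3 for CBE line 2 and, for the Eµ-deleted line, 43.2 and 37.1. Tle6, also of the Groucho family, was higher in WT, at 9.2 and 8.48 FPKM against 0.981 to 2.91 FPKM. Of 24 tested TGF-beta and BMP genes 8 (33.3%) were set apart lower and 2 higher. Smad3, the transcriptional effector of TGF-beta, had 0.21 and 0.138 FPKM in WT and 1 to 4.22 FPKM in the mutant libraries, so it too passed the filter only through the mutant lines.

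Among 31 tested BCL2 family and caspase genes 8 (25.8%) were set apart lower and 3 (9.68%) higher, 1 of the 3 on chromosome 19. The proapoptotic genes Pmaip1 and Bok were near 0 in WT. Pmaip1, which encodes NOXA, was listed at 0.009 and 0 FPKM in WT and had 3.92 to 6.4 FPKM in the mutant libraries. Bok had 0.278 and 0.211 FPKM in WT and 4.17 to 31.2 FPKM in the mutant libraries. Both genes passed the filter only through the mutant lines, and so had to differ. The survival gene Bcl2 was higher in WT, at 14 and 16.8 FPKM against 4.27 to 10.3 FPKM, as were the proapoptotic genes Bax, at 153 and 167 FPKM against 86.1 to 132 FPKM, and Bad on chromosome 19, at 42.5 and 42.1 FPKM against 20.8 to 30.8 FPKM. Bcl2 and Bax were not called without either WT library (limma adjusted p of up to 0.153 and 0.106). Without the WT libraries the lower counts were 2 and 2 for the AP-1 list, 6 and 6 for Wnt, 3 and 3 for TGF-beta, and 5 and 4 for the BCL2 list. With the spread between mutant lines as error they were 2, 5, 3 and 5, and without CBE line 2 replicate 2 the AP-1 count was 3.

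Cytoskeleton regulators were lower in WT in 14 of 48 cases (29.2%) and higher in 2 (4.17%), 1 of the 2 on chromosome 19, with a median of -0.24. Tmsb10, a thymosin that binds actin monomers, had 38.3 and 30.9 FPKM in WT and 121 to 501 FPKM in the mutant libraries (-2.75 ± 0.28, SE). The mutant values spread widely, and all lay above WT, as the rule requires. Marcks and Marcksl1, which tether actin to the membrane, were lower too. Marcksl1 had 3.45 and 2.88 FPKM in WT and 6.1 to 32.1 FPKM in the mutant libraries. Tubb6, a beta-tubulin, had 0.0715 and 0.101 FPKM in WT and 2.47 to 7.31 FPKM in the mutant libraries. Of 51 tested RGS and G protein subunit genes 13 (25.5%) were set apart lower and 1 (1.96%) higher. Gng4, a G protein gamma subunit, had 0.766 and 0.582 FPKM in WT, 17.3 to 22.2 FPKM in the CBE lines and 48.6 and 68.7 FPKM in the Eµ-deleted line. Gng12, another gamma subunit, was listed at 0 in both WT libraries and had 3.78 to 7.54 FPKM in the mutant libraries. The 1 gene higher in WT was Gnas, the stimulatory alpha subunit, at 666 and 673 FPKM against 432 to 606 FPKM, and it was not called without either WT library or CBE line 2 replicate 2 (limma adjusted p of up to 0.148).

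Among the adhesion receptors 6 of 20 (30.0%) were lower and 3 (15.0%) higher. Itga4, the alpha chain of VLA-4, had 8 and 6.98 FPKM in WT and 10.9 to 20.1 FPKM in the mutant libraries. Itga5, the alpha chain of the fibronectin receptor, had 2.71 and 2.98 FPKM in WT and at most 0.0226 FPKM in the mutant libraries. Without WT replicate 1 and 2 the lower counts were 8 and 7 for the cytoskeleton, 9 and 7 for G proteins, and 5 and 2 for adhesion. Without the CBE line 2 libraries the cytoskeleton count was 8 and 8. Itga4 was not called without WT replicate 2 (limma adjusted p = 0.0622). Taking the spread between mutant lines as error, the lower counts were 4, 7 and 2, and with the replicate block that of the G proteins was 20.

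Golgi glycosyltransferases and the sphingolipid list, which also holds degrading enzymes, leaned lower in WT. Of 67 tested Golgi glycosyltransferases 15 (22.4%) were set apart lower and 5 (7.46%) higher. St3gal4, a sialyltransferase, had 2.99 and 3.01 FPKM in WT and 8.1 to 17 FPKM in the mutant libraries (-1.82 ± 0.15, SE). St3gal1, another sialyltransferase, had 5.14 and 4.64 FPKM in WT and 9.38 to 18.2 FPKM in the mutant libraries. Fut4, a fucosyltransferase, was higher in WT, at 4.72 and 4.15 FPKM against 0.861 to 2.76 FPKM. Of 31 tested sphingolipid and ganglioside genes 8 (25.8%) were set apart lower, among them B4galnt1, and 2 (6.45%) higher. Smpd2, a neutral sphingomyelinase, had 0.268 and 0.223 FPKM in WT and 6.72 to 9.28 FPKM in the mutant libraries. Hexa, the lysosomal hexosaminidase chain that degrades GM2, was higher in WT, at 11.3 and 11.5 FPKM. It had 1.95 and 2.23 FPKM in CBE line 1 and at most 0.0689 FPKM in the other mutant lines. Without the WT libraries the lower counts were 9 and 8 for glycosyltransferases and 5 and 3 for sphingolipid genes, and with the spread between mutant lines as error they were 8 and 5. The higher glycosyltransferase count was 2 and 1 without the WT libraries, 3 and 3 without those of CBE line 2, 2 with the spread between mutant lines as error, and 2 to 6 under the other scalings.

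Of 29 tested class I MHC and peptide loading genes 4 (13.8%), a share near the 11.0% of all tested genes, were set apart lower and 0 higher (limma; 1 higher and 7 lower at an unadjusted p under 0.05). H2-Q7 had 63.2 and 49.5 FPKM in WT and 106 to 170 FPKM in the mutant libraries, but H2-Q genes are near-identical copies whose reads may be split between them. Without Eµ-deleted replicate 1 the count was 8.

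Among the 77 lists with at least 10 tested members, T lineage genes had the highest share set apart higher in WT. Of 31 members 11 were tested, and 5 (45.5%) were set apart higher and 3 (27.3%) lower. Lck, the kinase next to the T cell receptor, had 82 and 66.3 FPKM in WT and 17 to 52 FPKM in the mutant libraries (1.17 ± 0.21, SE), and was not called without either WT library (adjusted p of up to 0.0958) or with the spread between mutant lines as error (0.0708). Lat, the adaptor of the same receptor, had 272 and 246 FPKM in WT and 106 to 174 FPKM in the mutant libraries. Cd28, the costimulatory receptor, had 5.49 and 4.07 FPKM in WT and at most 0.73 FPKM in the mutant libraries. Cd5, on chromosome 19, had 2.82 and 2.2 FPKM in WT and at most 0.495 FPKM elsewhere. Tcf7, the TCF-1 transcription factor, went the other way, with 0.0491 and 0.0257 FPKM in WT and 1.97 to 4.7 FPKM in the mutant libraries. Cd3e, of the T cell receptor complex, and the coreceptor genes Cd4 and Cd8a were listed at 0 in all 8 libraries, and Cd3d had 0.108 and 0.123 FPKM in WT and at most 0.0157 FPKM in the mutant libraries. Ctla4 was set apart lower as well, but its level was high in CBE line 2 only, at 9.62 and 5.81 FPKM against at most 0.98 FPKM elsewhere. Cd28 and Cd5 stayed under 1 FPKM in every mutant library, and Tcf7 and Ctla4 in both WT libraries. These members passed the filter only through the group in which they were high, and so had to differ. The rank of this list rests partly on such members.

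**Figure D5:**
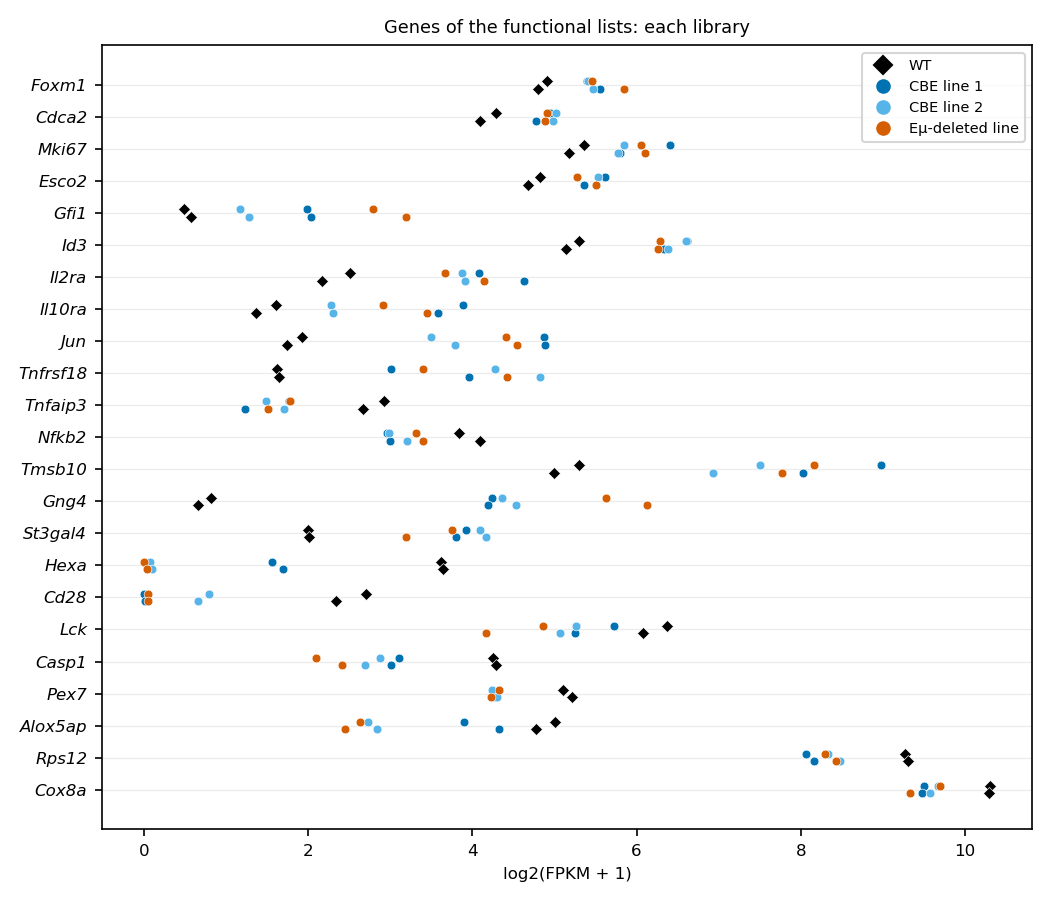
Expression in each library, as log2(FPKM + 1) on the x axis, of 23 genes named for the functional lists; diamonds are WT and circles the mutant lines. Genes from Foxm1 to Tnfrsf18 and from Tmsb10 to St3gal4 have WT below all circles, and Tnfaip3, Nfkb2 and the genes from Hexa downwards have WT above them. The genes were chosen among set-apart genes, so this separation follows from the rule.

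Chemokine, interferon and inflammasome genes held several members higher in WT. Of 11 tested chemokine and receptor genes 4 (36.4%) were set apart higher and 1 (9.09%) lower. Ccl3, an inflammatory chemokine, had 3.08 and 6.6 FPKM in WT and at most 0.429 FPKM in the mutant libraries. S1pr1, the receptor that guides egress into blood, was the lower gene, with 0.0624 and 0.0429 FPKM in WT and 3.15 to 8.97 FPKM in the mutant libraries, whereas the related S1pr2 was higher in WT, at 2.32 and 2.74 FPKM against 0.568 to 1.78 FPKM, and was not called without WT replicate 2 (limma adjusted p = 0.0702). Ccl3 passed the filter only through WT and S1pr1 only through the mutant lines, so both had to differ. The shares of this small list rest partly on such members. Of 29 tested nucleic acid sensing and inflammasome genes 5 (17.2%) were set apart higher and 1 (3.45%) lower. Casp1, the inflammasome protease, had 18 and 18.6 FPKM in WT and 3.27 to 7.59 FPKM in the mutant libraries (1.57 ± 0.11, SE). Naip2, a sensor of bacterial secretion systems, had 4.93 and 4.94 FPKM in WT and 0.742 to 1.88 FPKM in the mutant libraries, but Naip genes share sequence and their reads may be split. When line spread counted as error, the higher inflammasome count was 3.

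Interferon response genes were split, with 6 of 42 (14.3%) set apart higher, 1 of them on chromosome 19, and 6 (14.3%) lower. The lower count was 3 without either WT library and 3 with the spread between mutant lines as error. Ifi27, an interferon-induced mitochondrial protein gene, had 122 and 126 FPKM in WT and 34.3 to 74 FPKM in the mutant libraries. Oas1a, a sensor of double-stranded RNA, had 3.15 and 2.81 FPKM in WT and at most 1.31 FPKM in the mutant libraries. Ifnar1, a chain of the type I interferon receptor, was lower in WT, at 8.99 and 8.5 FPKM against 13.3 to 18.2 FPKM. Among the interferon-inducible GTPases 3 of 15 were higher and 3 lower. With the spread between mutant lines as error 3 were higher and 0 lower. Gbp genes share sequence and their reads may be split. Gbp6 was higher in WT, at 4.77 and 3.89 FPKM against 0.894 to 1.49 FPKM. Gbp2 was lower, at 6.01 and 5.3 FPKM in WT, 32.6 and 31.2 in CBE line 1 and 10.2 to 14.2 in the other mutant libraries. Slfn2, which maintains lymphocyte quiescence, was lower in WT, at 6.22 and 3.27 FPKM against 38.7 to 151 FPKM.

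Some metabolic lists had more members higher in WT than lower, while others, such as eicosanoid, glutathione and nucleotide genes, did not. Of 27 tested P450 and drug metabolism genes 8 (29.6%) were set apart higher, 2 of them on chromosome 19, and 4 (14.8%) lower. Aldh3b1, an aldehyde dehydrogenase on chromosome 19, had 6.64 and 5.43 FPKM in WT and 0.455 to 1 FPKM in the mutant libraries. Akr1c12, an aldo-keto reductase, stepped down across all lines, from 42.4 and 40 FPKM in WT to 28.6 and 24.8 for CBE line 1, 8.46 and 8.46 for CBE line 2 and, for the Eµ-deleted line, 1.25 and 1.14. Its near copy Akr1c13 showed the same order, and reads may be split between them. Of 18 tested eicosanoid genes 4 (22.2%) were higher and 4 (22.2%) lower. Alox5ap, the 5-lipoxygenase-activating protein, had 31.1 and 26.4 FPKM in WT and 4.45 to 19.1 FPKM in the mutant libraries. Ptgs1, the cyclooxygenase COX-1, had 10.4 and 10.9 FPKM in WT and 0.656 to 6.18 FPKM in the mutant libraries. Without the WT libraries the higher counts were 5 and 6 for the P450 list and 2 and 2 for the eicosanoid list. Taking the spread between mutant lines as error, they were 4 and 1, and the lower P450 count was 2.

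Of 34 tested peroxisome genes 8 (23.5%) were set apart higher and 1 (2.94%) lower, with 0 tested members on chromosome 19 and a median of 0.12. Pex7, an import receptor of peroxisomal matrix proteins, had 33.4 and 36 FPKM in WT and 17.7 to 19 FPKM in the mutant libraries (0.88 ± 0.07, SE). Pex3, which inserts peroxisomal membrane proteins, had 21.2 and 21.8 FPKM in WT and 11.9 to 14.7 FPKM in the mutant libraries. The mutant values lay close together for both genes. Of 59 tested lysosome genes 8 (13.6%) were higher and 3 (5.08%) lower. Ctsz, cathepsin Z, had 73.4 and 74.3 FPKM in WT and 27.4 to 58.7 FPKM in the mutant libraries, and Npc1, the lysosomal cholesterol exporter, had 7.96 and 7.92 FPKM in WT and 2.08 to 4.97 FPKM in the mutant libraries. Acp5, the tartrate-resistant acid phosphatase, was lower in WT, at 2.73 and 2.24 FPKM against 12.6 to 22.7 FPKM. Without the WT libraries the higher counts were 4 and 3 for peroxisomes and 4 and 4 for lysosomes. When line spread counted as error, they were 5 and 3.

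Ribosomal and respiratory genes showed small differences from the mean of the 3 mutant lines, mostly of the same sign. Against CBE line 2 alone the medians were 0.14 for cytosolic ribosomal, -0.01 for mitochondrial ribosomal and 0.05 for respiratory genes. They were 0.27, 0.16 and 0.09 against CBE line 1, and 0.16, 0.24 and 0.32 against the Eµ-deleted line. Of 78 tested cytosolic ribosomal protein genes 73 had a difference above 0, against 47.1% of all genes tested, and 9 (11.5%) were set apart higher and 0 lower (limma; 26 higher and 0 lower at an unadjusted p under 0.05). Under the other scalings 5 to 13 were set apart higher. The median was 0.20, and 0.07 to 0.23 under the other scalings. Rps12 had 616 and 631 FPKM in WT and 267 to 355 FPKM in the mutant libraries (0.99 ± 0.09, SE). Reads of ribosomal protein genes may be shared with their processed pseudogenes. Of 77 mitochondrial ribosomal protein genes 67 had a difference above 0, and 8 (10.4%) were set apart higher, 1 of them on chromosome 19, and 0 lower (limma; 21 higher and 0 lower at an unadjusted p under 0.05). Of 78 respiratory chain genes 69 had a difference above 0, and 5 (6.41%) were set apart higher, 2 of them on chromosome 19, and 0 lower (limma; 13 higher and 1 lower at an unadjusted p under 0.05). Cox8a, a cytochrome c oxidase subunit on chromosome 19, had 1260 and 1250 FPKM in WT and 640 to 829 FPKM in the mutant libraries, and was not called without either WT library (limma adjusted p of up to 0.0616). The share set apart was near or below that of all genes, which were not matched for level, for the 3 lists. The higher counts were 1, 1 and 1 without WT replicate 1, 1, 1 and 0 without WT replicate 2, 3, 3 and 3 with the spread between mutant lines as error, and 24, 16 and 11 with the replicate block. Without Eµ-deleted replicate 1 the mitochondrial and respiratory counts were 22 and 15, and without CBE line 2 replicate 1 the mitochondrial count was 5.

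The mutant lines differed from each other for 1709 of the 10146 tested genes (16.8%; limma F test over the 3 mutant line means, adjusted p under 0.05), and for 602 of the 2047 set-apart genes (29.4%). With the replicate block 2862 tested genes differed. The lists varied in this respect too. For 1 of 61 mitosis genes and 1 of 78 cytosolic ribosomal protein genes the mutant lines differed, as they did for 2 of 19 CTCF and cohesin genes and 3 of 30 NF-kB genes. For 24 of 67 Golgi glycosyltransferases, 11 of 25 Wnt genes, 18 of 59 lysosome genes and 20 of 57 histone genes of the replication-dependent clusters they did. Without CBE line 2 replicate 1 and replicate 2 the total was 836 and 803, without WT replicate 1 it was 1139, and without Eµ-deleted replicate 1 it was 2625.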

How the data were processed

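Poly(A) RNA was sequenced as stranded single reads of 75 bp from 8 libraries, 2 for each of 4 lines, per the labels' protocols. The authors deposited 1 table of FPKM values with confidence intervals per library. Cufflinks, TopHat and mm9 are named in the submitters' processing notes, while their versions, and the strand setting used in counting, are not given in the sources used. FPKM of loci with the same symbol were summed, entries with a quantification status other than OK (21) were left out, and 10479 genes with at least 1 FPKM in at least 2 libraries were tested. Values were used as log2(FPKM + 1). limma 3.58.1 (R 4.3.3) was fitted to all 4 lines with a moderated variance (4 residual degrees of freedom), WT was contrasted with the mean of the mutant line means, and p-values were adjusted over all genes tested (Benjamini-Hochberg). The fit was tested on simulated data of 10479 genes: changes of 0.5, 1 and 2 (log2) were recovered for 82.1%, 100.0% and 100.0% of 67, 67 and 66 genes, with 10 false calls. The simulated noise was independent between libraries, and the mutant lines did not differ from each other. Only genes with a mean log2(FPKM + 1) above 2 were changed. The real data differ in these respects, so these rates may not hold for them. Implied reads were computed from the deposited intervals, taken as 2 SD on each side.

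The replicate differences of all 6 pairs of lines correlated (r from 0.279 to 0.502), so replicate numbers are taken to pair libraries. The counts and SE given are from the fit without a replicate block. Their spread thus includes any shift shared by libraries of the same replicate number. The blocked fit is an alternative, printed where it moves a count by over 1.5 times. Named genes are the 12 set-apart genes per direction with the widest distance between nearest WT and mutant values and up to 4 per list and direction. Named genes were thus chosen on the values that the contrast tests. Kif17 and Psrc1 mark the edge of the rule, and Lat, Pax5, Klrb1c and the genes listed at 0 are markers. The members and lists were chosen with earlier results of these data known. Promoter windows are RefSeq's (GRCm38.p6), and all other coordinates are those of the files (mm9). Alternatives covered the pseudocount, filter, scaling, variance model, replicate block, line means and each library left out, and chromosome 19 was left out after the chromosome counts were seen. Some results are not reported here.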

Additional observations from a re-analysis of the deposited data

Results flagged for a closer look

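For 602 of the 2047 set-apart genes the mutant lines also differed from each other (limma F test, adjusted p under 0.05). Among the leading genes this held for Cyp2c55 (adjusted p = 0.000212), Lgals3bp (0.0378), Sox15 (0.0254) and Rnase12 (0.0015), all higher in WT. It also held for Fam92a (limma F test, adjusted p = 0.000678), Cyp4f18 (0.00409), Ctnna1 (0.00108), Tsnax (0.00146), Crhbp (0.00849) and Ryk (0.00386), all lower in WT.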

How the results depend on the processing

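Among genes with a mean FPKM of at least 5, 660 were called higher and 729 lower, 564 and 651 of them set apart, and the mutant lines differed for 713. With the spread between mutant lines as error 423 higher and 542 lower genes were called, all of them set apart, and with line means 3 and 15. Leaving out each library in turn gave 395 to 1402 called higher and 569 to 1860 lower, 371 to 1127 and 477 to 1487 set apart, and 803 to 2625 genes differing among the mutant lines. WT values lay outside the mutant values by at least 1 for 89 genes above and 137 below, and with deposited intervals that did not overlap for 778 and 1052. The number of lists with a median above 0 was 32, 21 under TPM scaling and 27 to 31 when a library was left out.

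With the replicate block 1688 genes were called higher, and the mutant lines differed for 2862. Among the lists described, the block moved no count of more than 3 by over 1.5 times beyond those given with the G protein, repair, ribosomal and respiratory lists. The 24 leading genes kept their direction in all alternatives in which they were tested, and 17 of them were not called with line means. They were chosen on values that these alternatives share. Depth limits the low values, and a value listed at 0 gives no fold. Each genotype but IGCR1-/- is 1 line, so a difference of WT cannot be told apart from a difference of that line. The cause of these shifts was not tested.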
